A study of Mus musculus with 18 samples.

Results

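Messenger RNA of the cholesterol synthesis and SREBP2 genes was described in white adipose tissue and quadriceps muscle of obese mice after 12 weeks of prednisone, a synthetic glucocorticoid. The set holds 8 named genes of the 33641 gene symbols in the deposited table: the pathway enzymes Hmgcs1, Idi1, Fdps, Fdft1, Sqle and Lss, and the regulators Srebf2 and Insig1. Each gene's level was the sum of its transcripts in TPM, a transcript abundance scaled to transcript length and to a fixed total in every library. All 8 genes, each summed over all its transcripts, passed the filter on low values in both tissues.

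The animals were 9 male wild-type DBA/2J mice, 3 per regimen, with an age given as about 20 weeks. Both tissues came from each mouse, which gave 18 libraries. Weekly mice received prednisone intraperitoneally at 1 mg/kg once a week, daily mice received the same dose once a day, and vehicle mice received daily injections without the drug. All mice had eaten a high-fat diet for 12 weeks before treatment and stayed on it during the 12 weeks of injections, so no lean mice were compared. Tissue was collected 24 hours after the last injection. Diet and injections together lasted longer than 20 weeks, so the age given cannot be that at collection. The labels name the adipose tissue only as white, with no depot, and the mice are all males of a single strain.

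Cells make cholesterol from acetyl-CoA through the mevalonate pathway, which first builds isoprenoid units, then joins them into squalene and closes squalene into the sterol rings. When sterols are scarce in the endoplasmic reticulum, the transcription factor SREBP2, encoded by Srebf2, is carried to the Golgi, cut and released to the nucleus, where it raises transcription of nearly every enzyme of the pathway. INSIG1 holds the SREBP complex back when sterols are plentiful and is itself a target of SREBPs. Adipose tissue is a large store of free cholesterol and takes much of it from lipoproteins.

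Promoter sequence was available for 5 of the 8 genes in RefSeq (GRCm38.p6), and it is shown because motifs of SREBP and of its partner NF-Y are the sequence features that members of this pathway are known to share. Each line gives the 250 bases before the RefSeq start of transcription, 5′ to 3′ along the gene. Capitals mark matches, on either strand, to the sterol regulatory element spellings TCACNCCAC and TCACCCCA, to the E-box CACGTG and to the NF-Y box CCAAT, which reads ATTGG on the opposite strand.
Hmgcs1 (chr13:119690101-119690350, plus strand): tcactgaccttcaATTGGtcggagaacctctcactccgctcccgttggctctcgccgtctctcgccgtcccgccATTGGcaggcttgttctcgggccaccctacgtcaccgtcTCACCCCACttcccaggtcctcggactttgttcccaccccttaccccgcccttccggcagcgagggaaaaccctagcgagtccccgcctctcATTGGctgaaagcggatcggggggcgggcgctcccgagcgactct
Idi1 (chr13:8885356-8885605, plus strand): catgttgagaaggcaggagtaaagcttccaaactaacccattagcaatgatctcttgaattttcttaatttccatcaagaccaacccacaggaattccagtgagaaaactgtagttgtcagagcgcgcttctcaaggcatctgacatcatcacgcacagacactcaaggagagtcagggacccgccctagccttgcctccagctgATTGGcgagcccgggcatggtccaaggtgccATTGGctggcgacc
Lss (chr10:76531355-76531604, plus strand): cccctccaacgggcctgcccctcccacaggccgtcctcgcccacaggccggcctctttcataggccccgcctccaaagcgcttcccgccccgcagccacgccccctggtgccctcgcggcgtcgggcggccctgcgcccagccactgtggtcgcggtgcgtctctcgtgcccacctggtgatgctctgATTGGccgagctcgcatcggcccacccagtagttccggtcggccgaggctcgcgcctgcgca
Srebf2 (chr15:82147019-82147268, plus strand): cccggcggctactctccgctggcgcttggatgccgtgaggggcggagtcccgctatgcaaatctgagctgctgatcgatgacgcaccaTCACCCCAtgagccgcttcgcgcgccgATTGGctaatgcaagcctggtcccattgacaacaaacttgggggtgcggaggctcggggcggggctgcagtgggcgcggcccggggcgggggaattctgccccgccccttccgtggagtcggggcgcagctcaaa
Insig1 (chr5:28071162-28071411, plus strand): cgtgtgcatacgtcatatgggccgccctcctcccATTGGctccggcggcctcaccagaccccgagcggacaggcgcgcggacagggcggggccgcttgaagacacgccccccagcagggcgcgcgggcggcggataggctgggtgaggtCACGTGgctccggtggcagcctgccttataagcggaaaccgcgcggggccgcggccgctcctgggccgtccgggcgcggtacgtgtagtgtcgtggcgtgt

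The Hmgcs1 window held TCACCCCAC, which matches both sterol element spellings, between 137 and 129 bases before the start, together with 3 CCAAT boxes. The Srebf2 window held TCACCCCA between 162 and 155 bases before the start and 1 CCAAT box. The Insig1 window held CACGTG between 101 and 96 bases before the start and 1 CCAAT box, while the Idi1 window held 2 CCAAT boxes and the Lss window held 1. Over 32851 RefSeq mouse promoters cut to the same length, TCACNCCAC was present in 1.05%, TCACCCCA in 1.34%, CACGTG in 6.02% and CCAAT in 33.8%. All 5 windows thus held a CCAAT box. The GC box GGGCGG, searched on both strands and left in lower case, was also present in all 5 windows and in 32.7% of all promoters. A match describes letters in the window and is not evidence of binding.

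Per GENCODE M21 on GRCm38, Hmgcs1 (chr13:119690379-119708260, plus strand), Fdft1 (chr14:63145150-63179578, minus strand) and Srebf2 (chr15:82147181-82205379, plus strand) each had a single transcript in the table. Sqle (chr15:59315077-59331192, plus strand) had 4, Idi1 (chr13:8885501-8892451, plus strand) 5, Fdps (chr3:89093588-89101959, minus strand) 7, Lss (chr10:76531588-76557138, plus strand) 8 and Insig1 (chr5:28071363-28078662, plus strand) 2. The RefSeq promoter windows of Idi1, Lss, Srebf2 and Insig1 end inside these GENCODE gene spans. Both CCAAT boxes of Idi1 lie within its span, not before it. Fdft1 overlaps Ctsb on the opposite strand, Lss the antisense gene 4930483K19Rik, and Hmgcs1 the antisense gene Gm48342. Idi1 overlaps Gm48574 on the opposite strand. Fdps overlaps Gm43738 and Gm22935 on its own strand, and Srebf2 overlaps Gm49502 and a microRNA gene on its own strand. The library kit kept strand, but whether strand was used in quantification is not given in the sources used here. Overlap was taken over whole gene spans with their introns, and shared transcript sequence was not tested. The values of these 6 genes may be less certain, and for Fdps and Srebf2 strand could not separate the overlapping genes.

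The tissues carried their own markers: summed TPM of 10 adipocyte markers was 47338 to 54793 in adipose libraries against 1030 to 2825 in muscle libraries, and that of 10 skeletal muscle fibre markers was 154 to 1522 in adipose and 107624 to 126365 in muscle. Adipose libraries had 13413 to 14076 genes at 1 TPM or more and muscle libraries 11781 to 12200. Read counts cannot be had from TPM, and sequencing depth is therefore unknown. In each group the third library held the middle of the 3 values for many of the tested genes with a mean of at least 10 TPM. The share was 44.1% to 54.8% in the adipose groups and 42.3% to 55.8% in the muscle groups, where an even split gives 1 in 3. Calls between regimens therefore stand below beside values with the third libraries removed. The spread between the 3 libraries of a group may therefore be too small, and its part in the calls was not tested. In bulk tissue, fewer cells of a type and less RNA per cell cannot be told apart.

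**Figure D1:**
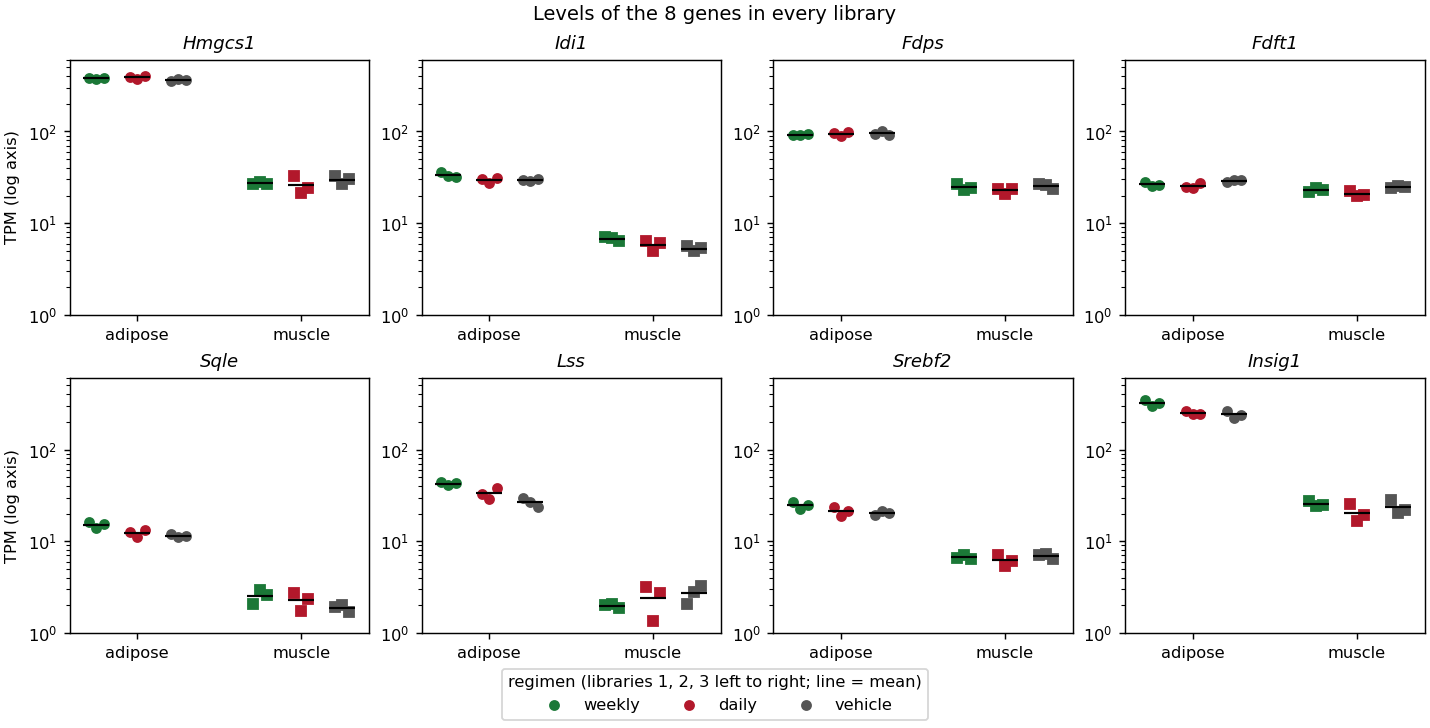
Levels of the 8 genes in TPM on a log axis, with a panel per gene, adipose libraries as circles on the left and muscle libraries as squares on the right. Points are single libraries, lines are means of 3, and the groups run weekly, daily and vehicle within each tissue. Hmgcs1 was at 355 to 398 TPM in adipose tissue and 21.2 to 32.6 TPM in muscle, whereas Fdft1 was at 24.2 to 29.5 and 19.7 to 25.7 TPM.

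Across the 9 adipose libraries the genes fell into clear steps of abundance. Hmgcs1, the cytosolic synthase that makes HMG-CoA at the head of the pathway, was the most abundant at 377 ± 14.7 TPM (SD, n = 9), followed by Insig1 at 271 ± 42.3 TPM and by Fdps, the synthase of farnesyl diphosphate, at 94.1 ± 3.56 TPM. Lss, Idi1, Fdft1 and Srebf2 came next at mean levels of 34.1, 30.9, 27.0 and 22.1 TPM, and each overlapped its neighbour in range. Sqle, which adds oxygen to squalene in a rate-limiting step, was the lowest at 13.0 ± 1.79 TPM and lay below Srebf2 in 9 of 9 libraries. In muscle, Hmgcs1, Fdps, Insig1 and Fdft1 had mean levels of 27.6, 24.2, 23.1 and 22.9 TPM with overlapping ranges. Srebf2 and Idi1 followed at 6.58 and 5.96 TPM, and Lss and Sqle were lowest at 2.36 and 2.23 TPM. The Lss levels include transcripts annotated as non-coding. Protein-coding Lss transcripts averaged 14.6, 13.7 and 11.9 TPM in weekly, daily and vehicle adipose tissue. In muscle they averaged 0.689, 0.539 and 0.913 TPM, in the same order.

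All 8 genes were higher in adipose tissue than in muscle of the same vehicle mice, by limma on the log2(TPM + 1) differences within mice, although Fdft1 turned the other way under another scaling. This counts 8 of 8 called at an adjusted p under 0.05, where 87.0% of all 11737 genes tested in both tissues were called and 73.9% were called higher. The all-gene calls were 8676 higher and 1533 lower, and under scaling by trimmed mean of M values (TMM) 4498 higher and 4529 lower. Hmgcs1 showed the widest gap, with 363 TPM in adipose tissue and 29.9 TPM in muscle, a ratio of 12.2, and a log2 difference of 3.56 ± 0.12 (SE). Insig1 had 242 TPM in adipose tissue and 23.4 TPM in muscle, with a log2 difference of 3.32 ± 0.11. The median log2 difference was 2.21 over the 8 genes and 0.88 over all genes.

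Lss, the cyclase that closes the sterol ring system, Idi1, which isomerises isopentenyl diphosphate, and Sqle had log2 differences of 2.91, 2.28 and 2.13. Fdps and Srebf2 stood at 1.87 and 1.43. Protein-coding Lss transcripts alone averaged 11.9 TPM in adipose tissue and 0.913 TPM in muscle of vehicle mice. Fdft1, squalene synthase, was nearly level between the tissues, at 28.9 ± 0.891 TPM in adipose tissue and 25.0 ± 0.778 TPM in muscle (SD, n = 3), and its log2 difference of 0.21 ± 0.08 was barely called by limma (adjusted p = 0.0306). TMM scaling, which moved the all-gene median to -0.01, turned the Fdft1 difference to -0.78 (adjusted p = 4.35e-06) and kept the other 7 genes called as higher in adipose tissue, at 0.49 to 2.56. Fdft1 was not called without the third libraries (adjusted p = 0.177) or without any one of the vehicle mice (0.0742 to 0.108), whereas the other 7 genes stayed called without the third libraries. Over 18 alternatives the adjusted p of Fdft1 ran from 4.35e-06 to 0.177.

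Among 14 further enzymes of cholesterol synthesis, 13 were called higher in adipose tissue and none lower, with a median log2 difference of 2.42. Of 6 genes of the isoprenoid side branches, 4 were called higher and 1 lower, Pdss2 of the ubiquinone branch at -0.67. Of 11 genes of SREBP processing and sterol sensing, 9 were called higher and 1 lower, the ubiquitin ligase gene Rnf139 at -0.64. Shares called higher in these lists were 92.9%, 66.7% and 81.8%, in that order, beside 73.9% of all genes. The median log2 difference was 0.81 in the isoprenoid list and 1.49 in the SREBP processing list, beside 0.88 over all genes.

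**Figure D2:**
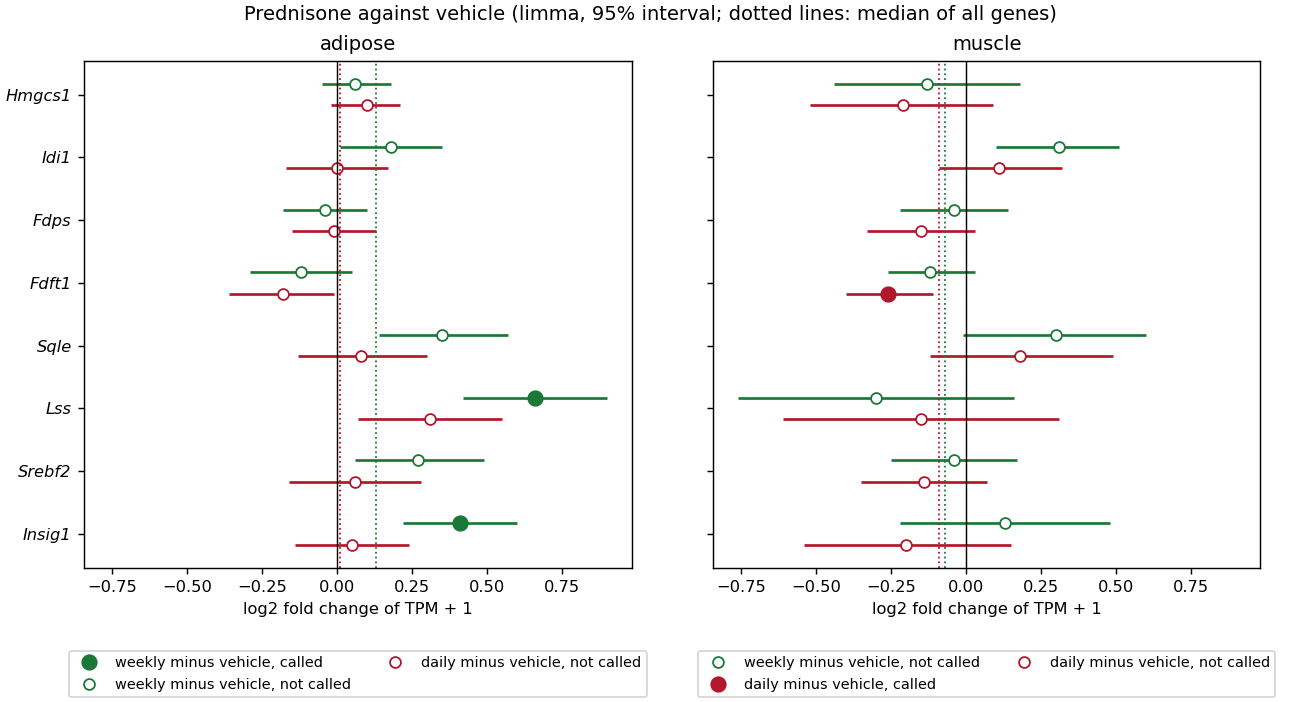
Log2 fold changes of TPM + 1 for the 8 genes, prednisone minus vehicle, in adipose tissue on the left and muscle on the right. Points are limma estimates from 3 mice per regimen, bars are 95% intervals, filled points were called at an adjusted p under 0.05, and dotted lines are the medians of all genes tested. Lss and Insig1 after weekly prednisone in adipose tissue and Fdft1 after daily prednisone in muscle are the filled points.

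In adipose tissue, weekly prednisone was accompanied by higher Lss and Insig1. Lss had 44.1, 40.6 and 42.8 TPM in weekly mice, against 29.3, 26.8 and 23.8 TPM in vehicle mice. Insig1 had 351, 295 and 319 TPM in weekly mice, against 266, 222 and 239 TPM in vehicle mice. Every weekly library lay above every vehicle library for both genes.

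Lss rose by 0.66 ± 0.11 on the log2 scale (SE, limma, 95% interval 0.42 to 0.90, adjusted p = 0.0146) and Insig1 by 0.41 ± 0.08 (0.22 to 0.60, adjusted p = 0.0269). These were 2 of 8 genes, 25.0%, where 7.43% of the 14150 genes tested in adipose tissue were called and 5.72% were called higher. The 8 genes had a median log2 fold change of 0.23 and all genes one of 0.13.

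Sqle had 16.0, 13.8 and 15.3 TPM in weekly mice, against 11.9, 11.2 and 11.5 TPM in vehicle mice. The groups did not overlap, but the log2 fold change, 0.35 ± 0.10, missed the threshold (limma, adjusted p = 0.0544). Srebf2 had 26.7, 22.6 and 25.1 TPM in weekly mice, against 19.4, 21.2 and 20.4 TPM in vehicle mice, again without overlap and not called (0.27 ± 0.10, adjusted p = 0.0982). Idi1 had 36.2, 32.6 and 32.1 TPM in weekly mice, against 29.5, 28.9 and 30.2 TPM in vehicle mice, with a log2 fold change of 0.18 ± 0.08 (adjusted p = 0.145).

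Hmgcs1, the most abundant member, differed little. It had 387, 372 and 379 TPM in weekly mice, against 355, 369 and 365 TPM in vehicle mice, and its 95% interval for the log2 fold change ran from -0.05 to 0.18. Fdps averaged 92.6 ± 1.74 TPM in weekly mice and 95.3 ± 4.79 TPM in vehicle mice, and Fdft1 26.6 ± 1.54 and 28.9 ± 0.891 TPM (SD, n = 3 each), with log2 fold changes of -0.04 and -0.12 that were not called. In 6 of 8 genes the weekly libraries all lay above the vehicle libraries, as they did in 27.6% of all genes.

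Both calls depended on choices of processing and on single libraries. Over all genes, 809 were called higher and 243 lower, and under TMM scaling, which brought the all-gene median to 0.00, 458 and 658. Under TMM scaling Lss stayed called (0.52, adjusted p = 0.0247), Insig1 did not (0.26, adjusted p = 0.105), and Fdft1 was called lower (-0.26, adjusted p = 0.0403). Without the third library of each group neither gene was called (Lss 0.58, adjusted p = 0.309, and Insig1 0.40, adjusted p = 0.329). Leaving out weekly 3 ended both calls (Lss 0.65, adjusted p = 0.0644, and Insig1 0.41, adjusted p = 0.0834), as did leaving out vehicle 3 (Lss 0.58, adjusted p = 0.0617, and Insig1 0.40, adjusted p = 0.0893). Leaving out weekly 1 (0.34, adjusted p = 0.0684) or vehicle 2 (0.35, adjusted p = 0.066) ended that of Insig1. Calls over all genes also changed in these fits, to between 1 and 1511 with libraries left out, against 1052 with all. Over 21 alternatives the adjusted p ran from 0.00451 to 0.309 for Lss and from 0.0097 to 0.425 for Insig1.

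The transcripts of Lss did not move alike. Protein-coding Lss transcripts summed to 14.6 ± 1.29 TPM in weekly mice and 11.9 ± 1.41 TPM in vehicle mice, and transcripts annotated as non-coding to 27.9 ± 1.89 and 14.7 ± 3.96 TPM (SD, n = 3 each). Non-coding transcripts made up 62.4% to 68.2% of Lss TPM in weekly mice, 53.4% to 61.8% in daily mice and 47.2% to 64.9% in vehicle mice. The widest difference was in ENSMUST00000159013.7, a processed transcript without an open reading frame in the annotation. It had 8.24, 8.64 and 10.5 TPM in weekly mice and 1.71, 0 and 5.27 TPM in daily mice, against 0, 1.01 and 0 TPM in vehicle mice.

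That transcript was separate between weekly and vehicle mice in every library, although it was not called when transcripts were tested singly (limma, adjusted p = 0.093, where 0.0855% of 36256 transcripts were called). The main coding transcript, ENSMUST00000048678.6, had 14.0, 13.7 and 15.4 TPM in weekly mice, against 10.3, 12.9 and 12.0 TPM in vehicle mice. Counted over protein-coding transcripts alone, Lss had a log2 fold change of 0.28 and was no longer called (adjusted p = 0.17), and the same held with its most abundant transcript alone (0.27, adjusted p = 0.197). Zero TPM in a single transcript may be a failed estimate, since transcripts of a gene share sequence.

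Insig1 was higher in both of its transcripts, by 0.39 in the coding and 0.79 in the retained-intron transcript. Neither was called when transcripts were tested singly (limma, adjusted p = 0.121 and 0.127). ENSMUST00000059155.10, which carried 95.8% of Insig1 TPM in adipose tissue, had 331, 279 and 304 TPM in weekly mice, against 258, 212 and 229 TPM in vehicle mice. The retained-intron transcript ENSMUST00000199728.1 had 19.3, 16.6 and 14.7 TPM in weekly mice, against 8.41, 9.68 and 9.87 TPM in vehicle mice. Summed over coding transcripts alone and tested among genes, Insig1 stayed called (0.39, adjusted p = 0.0242). Retained-intron transcripts of all genes held 3.79% to 4.23% of TPM in weekly adipose libraries, 3.31% to 3.72% in daily and 3.34% to 3.42% in vehicle libraries, and the part of this in the Lss and Insig1 values was not tested.

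**Figure D3:**
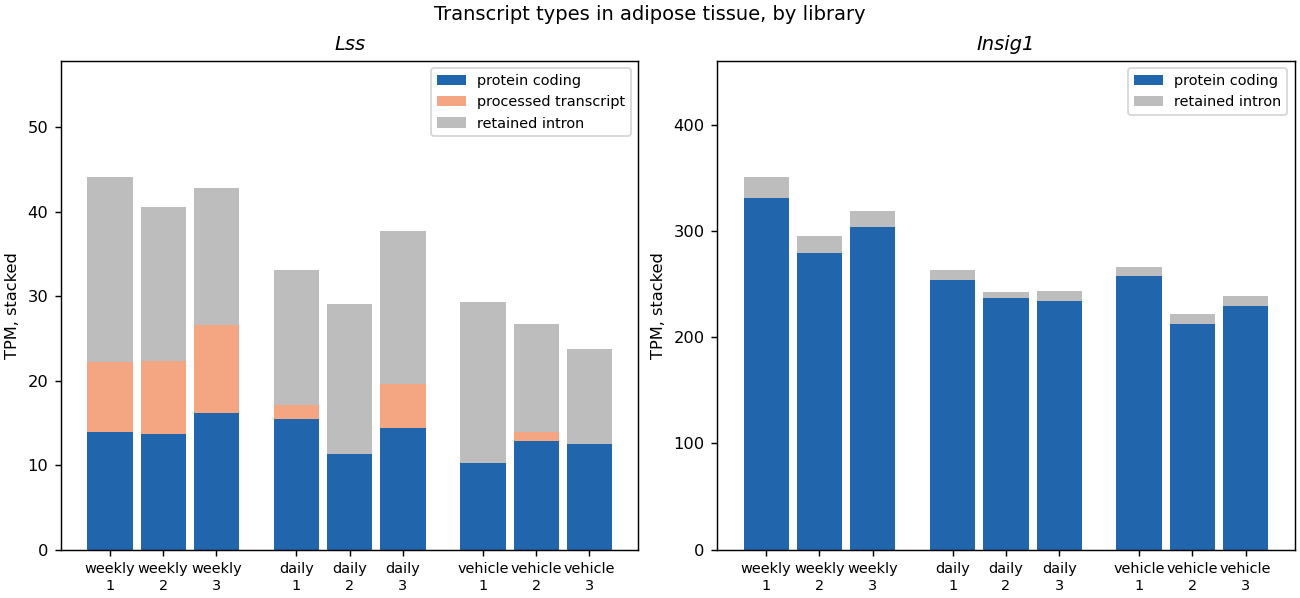
TPM of Lss (left) and Insig1 (right) in each adipose library, stacked by the transcript type in GENCODE M21, with weekly, daily and vehicle mice from left to right. The processed transcript of Lss reached 8.24 to 10.5 TPM in weekly mice and at most 1.01 TPM in vehicle mice, and Insig1 is almost all protein coding.

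Markers of some other cell types were higher in weekly than in vehicle mice in adipose tissue. The summed TPM of 8 endothelial markers was 753, 588 and 658 in weekly mice, against 532, 546 and 556 in vehicle mice, and 2 of 8 markers were called higher. The sum of 10 macrophage markers was 2557 to 2981 in weekly mice, against 1973 to 2646 in vehicle mice, with 4 of 10 called higher, and that of 8 mesothelial markers 85.8 to 148 against 55.2 to 84.9, with 4 of 8 called higher. Over all genes 5.72% were called higher. In daily mice the macrophage sum was 2584 to 2679, within the weekly range. Endothelial and mesothelial sums in daily mice were 483 to 563 and 59.4 to 74.2. No lymphocyte or erythroid marker was called in weekly mice. Skeletal muscle fibre markers summed to 182, 1522 and 1108 TPM in weekly mice, to 163, 955 and 182 TPM in daily mice and to 249, 154 and 182 TPM in vehicle mice, with none called.

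With the endothelial marker level as a covariate, none of the 8 genes was called between weekly and vehicle mice, and Lss and Insig1 had log2 fold changes of 0.51 (adjusted p = 0.235) and 0.29 (adjusted p = 0.425). With the skeletal muscle marker level as a covariate, 5 of 8 were called higher, namely Lss, Insig1, Sqle, Idi1 and Srebf2. In that fit 4119 of all 14150 genes were called, against 1052 without the covariate, and in the fit with the endothelial level 157 were called. All 10 adipocyte markers were without a call, at sums of 50053 to 51807 TPM in weekly mice and 50710.3 to 54793 TPM in vehicle mice. Endothelial sums did not overlap between weekly and vehicle mice, so the fit with that covariate cannot separate the marker level from the regimen. The part of these cell types in the results was not tested.

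**Figure D4:**
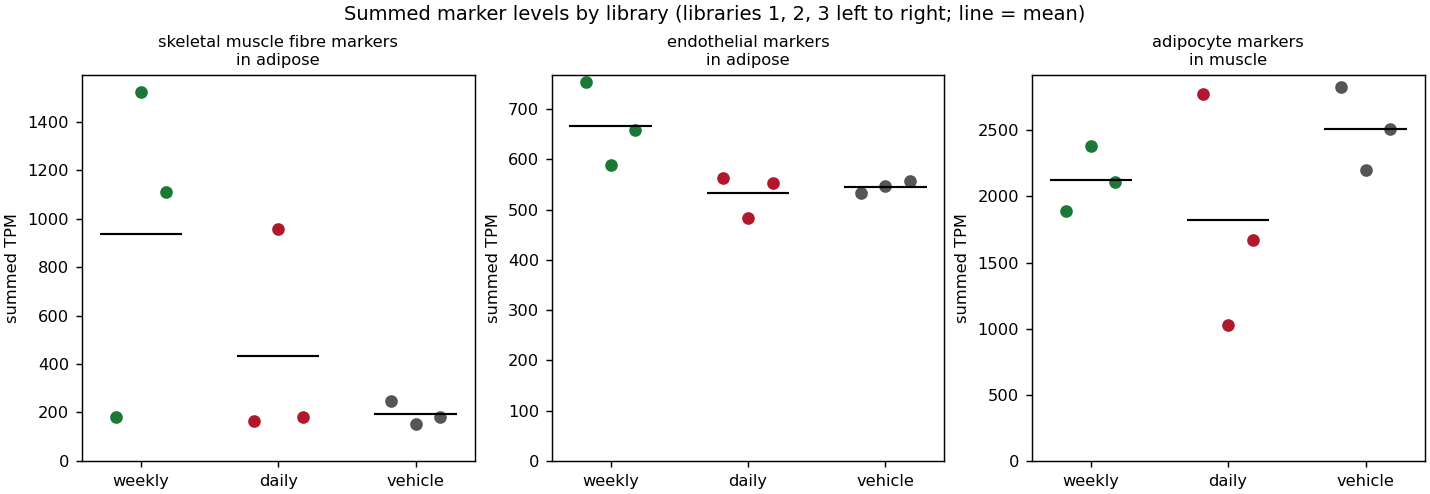
Summed TPM of markers of other cell types by library: skeletal muscle fibre and endothelial markers in adipose tissue, and adipocyte markers in muscle. Points are libraries 1, 2 and 3 from left to right in weekly, daily and vehicle mice, and lines are means of 3. Endothelial sums were 588 to 753 in weekly and 532 to 556 in vehicle mice, and the lowest adipocyte sum in muscle, 1030, was in daily 2.

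Genes beyond the 8 were taken from lists of the same pathway. Of 14 other cholesterol synthesis enzymes, 1 rose in adipose tissue after weekly prednisone and none fell, with a median log2 fold change of 0.04. The share called higher was 7.14%, beside 5.72% of all genes, whose median was 0.13. Cyp51, the demethylase that acts on lanosterol after Lss, averaged 19.3 TPM in weekly mice and 14.4 TPM in vehicle mice and rose by 0.39 ± 0.10 (limma, adjusted p = 0.0465). That call was lost under TMM scaling (0.0681), with the endothelial covariate (0.17, adjusted p = 0.632), without the third library of each group (0.344), and without any single library in turn except daily 2 (0.0573 to 0.126). Mvk, mevalonate kinase, had the lowest log2 fold change of the 14, at -0.31 ± 0.10, and was not called (adjusted p = 0.082).

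Among 12 tested genes of cholesterol uptake and transport, none was called by limma, and 6 had an unadjusted p under 0.05, as did 4358 of all 14150 genes. In the list of LXR, efflux and esterification genes, 1 of 10 rose and 1 fell, a share of 20.0% beside 7.43% of all genes called. Cyp27a1, sterol 27-hydroxylase, rose by 0.31 ± 0.07 (limma, adjusted p = 0.0378). Apoe, the apolipoprotein of cholesterol efflux, fell by 0.39 (limma, adjusted p = 0.0374). Apoe averaged 3845 TPM in weekly mice, against 5031 TPM in vehicle mice. The Cyp27a1 call was lost under TMM scaling (0.16, adjusted p = 0.136), without the third libraries (0.346) and without any single library except daily 2 and vehicle 2 (0.0581 to 0.117). The Apoe call was lost without the third libraries (0.325) and with the endothelial covariate (-0.15, adjusted p = 0.62). Leaving out any single library except weekly 2 and daily 2 also ended it (0.0502 to 0.0973). Limma did not call Apoe with no filter, the top transcript or the replicate block either (adjusted p = 0.11, 0.0524 and 0.0586).

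None of 11 genes of SREBP processing and sterol sensing was called by limma, and 1 had an unadjusted p under 0.05. Srebf1, the gene of the paralogue SREBP1, averaged 166 TPM in weekly mice and 165 TPM in vehicle mice. Of 12 lipogenic genes, which SREBP1 is known to drive, 4 rose, with a list median of 0.28 beside 0.13 over all genes, of which 5.72% were called higher. Acly, which makes cytosolic acetyl-CoA for both sterols and fatty acids, had 174, 186 and 189.5 TPM in weekly mice, against 115, 129 and 127 TPM in vehicle mice, and rose by 0.56 ± 0.07 (limma, adjusted p = 0.00656). The desaturase genes Fads1, Fads2 and Scd2 rose by 0.38, 0.59 and 0.31, of which Fads2 (adjusted p = 0.0584) and Scd2 (adjusted p = 0.158) were lost under TMM scaling. None of the 4 was called without the third libraries (adjusted p 0.277 to 0.344) or with the endothelial covariate, under which Fads1 had 0.25 (adjusted p = 0.323) and Fads2 0.22 (adjusted p = 0.687). The Fads1 call was also lost without weekly 1, weekly 3 or any vehicle library (0.0526 to 0.0798), that of Fads2 without any single library except daily 2 (0.0515 to 0.129), and that of Scd2 without any single library except daily 2 and vehicle 2 (0.0569 to 0.115). With the top transcript alone, Acly (0.39, limma adjusted p = 0.133), Fads2 (0.0658) and Scd2 (0.0564) were also not called. The 6 isoprenoid branch genes had no call and a median of 0.08.

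**Figure D5:**
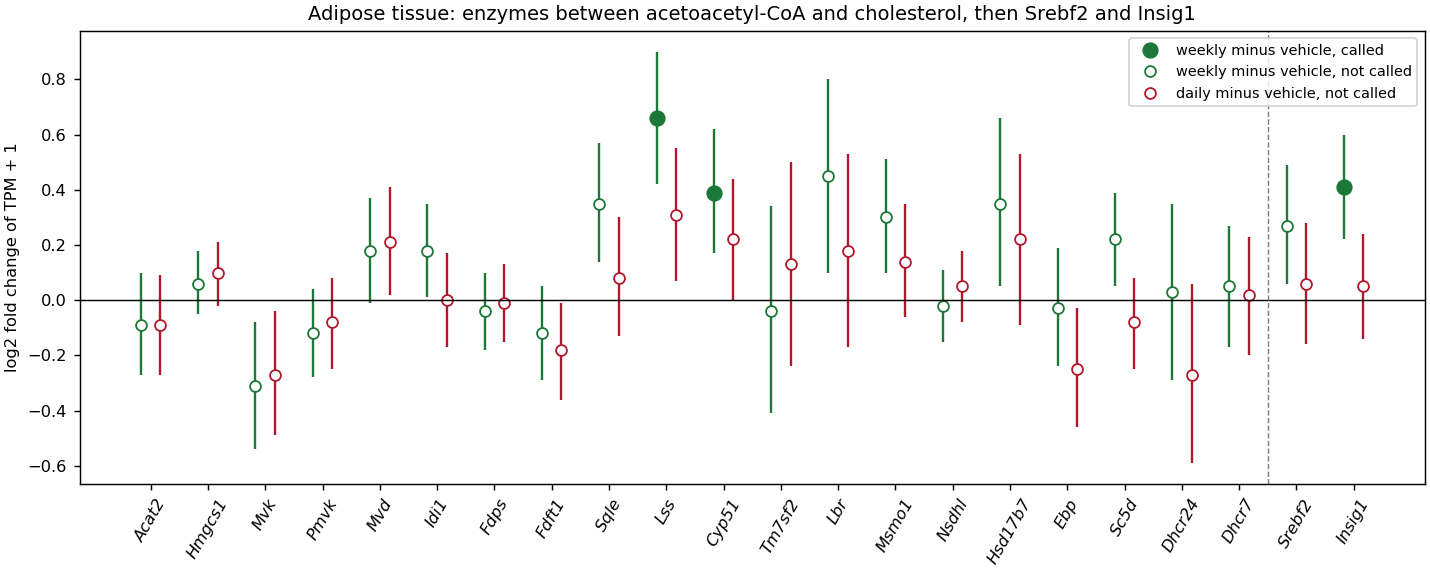
Log2 fold changes of TPM + 1 in adipose tissue for enzymes between acetoacetyl-CoA and cholesterol in pathway order, then Srebf2 and Insig1 to the right of the dashed line. Points are limma estimates with 95% intervals for weekly and daily minus vehicle (n = 3 mice each), and filled points were called. Lss, Cyp51 and Insig1 are filled for weekly mice, and no gene is filled for daily mice.

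Daily prednisone gave no call among the 8 genes in adipose tissue. This was 0 of 8, where limma called 1 of 14150 genes, 0.00707%, and 1305 genes had an unadjusted p under 0.05, 2 of them among the 8. Hmgcs1 had 397, 369.6 and 398 TPM in daily mice, against 355, 369 and 365 TPM in vehicle mice, and no daily library was below a vehicle library (0.10 ± 0.05, adjusted p = 0.615). Fdft1 had 24.7, 24.2 and 27.2 TPM in daily mice, against 27.9, 29.3 and 29.5 TPM in vehicle mice, and all daily libraries were lower (-0.18 ± 0.08, adjusted p = 0.511). Groups lay apart upward in 7.66% of all genes and downward in 7.93%.

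Lss stood at 33.1, 29.1 and 37.6 TPM in daily mice, and vehicle 1, at 29.3 TPM, lay within that range (0.31 ± 0.11, adjusted p = 0.425). Insig1 had 263, 243 and 244 TPM in daily mice, against 266, 222 and 239 TPM in vehicle mice, with a 95% interval of -0.14 to 0.24. Sqle, Idi1, Fdps and Srebf2 had log2 fold changes between -0.01 and 0.08, and their groups overlapped. No gene of the 6 pathway lists was called.

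Weekly and daily prednisone did not differ by a called gene among the 8 in adipose tissue (0 of 8, where 44 of 14150 genes, 0.311%, were called by limma and 2242 had an unadjusted p under 0.05, 4 of them among the 8). Insig1 was 1.29 times as high in weekly as in daily mice, at means of 322 ± 27.9 and 249.8 ± 11.3 TPM (SD, n = 3 each), with a log2 fold change of 0.36 ± 0.08 (adjusted p = 0.132). Lss averaged 42.5 ± 1.76 TPM in weekly mice and 33.3 ± 4.25 TPM in daily mice (0.35 ± 0.11, adjusted p = 0.214). Insig1, Lss, Sqle and Idi1 had all weekly libraries above all daily libraries, which held for 22.5% of all genes.

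With the skeletal muscle marker level as a covariate, Insig1 (0.41, adjusted p = 0.0248), Lss (0.41, adjusted p = 0.0414), Sqle (0.34, adjusted p = 0.0371), Idi1 (0.24, adjusted p = 0.0426) and Srebf2 (0.30, adjusted p = 0.039) were called between the regimens, and 1705 genes were called over the whole table, against 44 without the covariate. Daily 2, where these markers summed to 955 TPM, was the lowest of the 9 adipose libraries for Sqle, Idi1, Fdft1, Fdps and Srebf2. The part of these markers in the result was not tested.

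Weekly and daily prednisone were each compared with the same 3 vehicle mice, so the fold changes of the regimens share their reference. Side by side in adipose tissue, the log2 fold change was 0.66 after weekly and 0.31 after daily prednisone for Lss, 0.41 and 0.05 for Insig1, 0.35 and 0.08 for Sqle, and 0.27 and 0.06 for Srebf2. For Hmgcs1 it was 0.06 and 0.10, for Fdft1 -0.12 and -0.18.

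In muscle, weekly prednisone gave no call among the 8 genes (0 of 8, where limma called 6 of 12246 genes, 0.049%, and 1891 had an unadjusted p under 0.05, 1 of them among the 8). That gene was Idi1, which had 7.0, 6.87 and 6.47 TPM in weekly mice, against 5.57, 4.95 and 5.35 TPM in vehicle mice. All weekly libraries were higher, and the log2 fold change of 0.31 ± 0.09 missed the threshold (adjusted p = 0.193). Sqle had 2.06, 2.93 and 2.62 TPM in weekly mice, against 1.91, 1.99 and 1.68 TPM in vehicle mice, also without overlap (0.30 ± 0.14, adjusted p = 0.335).

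Lss in muscle lay the other way, at 2.00, 2.08 and 1.86 TPM in weekly mice, against 2.09, 2.77 and 3.25 TPM in vehicle mice (-0.30 ± 0.20, adjusted p = 0.522). Its protein-coding transcripts averaged 0.689 ± 0.11 TPM in weekly and 0.913 ± 0.256 TPM in vehicle muscle (SD, n = 3 each). Non-coding transcripts made up 56.6% to 71.8% of Lss TPM in weekly muscle and 43.1% to 78.9% in vehicle muscle. Groups lay apart upward in 3.75% of all muscle genes and downward in 19.3%. At about 2 TPM, the fold changes of Lss and Sqle on this scale understate ratios of TPM: the mean of Sqle was 1.36 times as high in weekly as in vehicle mice. Hmgcs1, Fdps, Fdft1, Srebf2 and Insig1 had log2 fold changes from -0.13 to 0.13 with overlapping groups. None of the genes in the 6 pathway lists was called.

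After daily prednisone, Fdft1 fell in muscle. It had 22.2, 19.7 and 20.4 TPM in daily mice, against 24.1, 25.7 and 25.1 TPM in vehicle mice. No daily library reached a vehicle library, which held for 27.8% of all muscle genes, and Fdft1 fell by 0.26 on the log2 scale (SE 0.06, limma, 95% interval -0.40 to -0.11, adjusted p = 0.0295). This was 1 of 8 genes, where 13.7% of 12246 genes were called and 11.8% were called lower. Those calls were 234 higher and 1440 lower, and under TMM scaling 367 higher and 446 lower. The median log2 fold change was -0.15 over the 8 genes and -0.09 over all genes.

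The Fdft1 call was lost under TMM scaling (-0.16, adjusted p = 0.165), without the third libraries (-0.24, adjusted p = 0.327), when leaving out daily 2, daily 3, weekly 3 or any vehicle library in turn (-0.28 to -0.22, adjusted p 0.0519 to 0.111), and with adipocyte markers as a covariate (-0.20, adjusted p = 0.0798). Over 20 alternatives its adjusted p ran from 0.02 to 0.327 and its direction did not change.

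Other measures moved with the daily group in muscle. The summed TPM of 10 macrophage markers was 561, 366 and 442 in daily mice, against 214, 311 and 249 in vehicle mice, without overlap, and 3 of 10 were called higher. The 8 mesothelial markers summed to 5.39, 2.51 and 2.35 TPM in daily mice, against 1.63, 1.14 and 1.35 TPM in vehicle mice, and the 1 marker that could be tested was called higher. Protein-coding transcripts held 80.3% to 81.7% of TPM in daily muscle libraries, against 84.9% to 87.5% in vehicle muscle libraries. Their part in the Fdft1 value was not tested.

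The other 7 genes were not called in muscle after daily prednisone. Hmgcs1 had 32.5, 21.2 and 24.1 TPM in daily mice, against 32.6, 26.7 and 30.2 TPM in vehicle mice, and was called only without daily 1 (-0.38, adjusted p = 0.0313). Insig1 had 25.5, 16.6 and 19.2 TPM in daily mice, against 28.0, 20.4 and 21.9 TPM in vehicle mice, with a log2 fold change of -0.20 ± 0.15 (adjusted p = 0.432). Daily 1 was the highest and daily 2 the lowest daily library for all 8 genes, and daily 2 was the lowest of the 9 muscle libraries for Hmgcs1, Fdft1, Fdps, Lss, Srebf2 and Insig1.

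The adipocyte marker sum in muscle followed the same order of daily libraries, at 2771, 1030 and 1673 TPM in daily mice, against 1889.8 to 2379 TPM in weekly mice and 2199.7 to 2825 TPM in vehicle mice. Adipocyte markers were detected in every muscle library. With their level as a covariate, the log2 fold changes after daily prednisone became 0.02 for Hmgcs1, 0.02 for Insig1 and 0.09 for Lss, against -0.21, -0.20 and -0.15 without it. The part of adipocyte RNA in the muscle values of these genes, which are 12.2, 10.3 and 9.85 times as abundant in adipose tissue of vehicle mice, was not tested further.

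Of the lists, 1 of 14 other synthesis enzymes fell in muscle after daily prednisone, Pmvk, phosphomevalonate kinase, by 0.38 (adjusted p = 0.0234). Of the 11 genes of SREBP processing, 1 fell: Srebf1, to 36.5, 29.3 and 30.9 TPM in daily mice, against 63.1, 45.6 and 49.7 TPM in vehicle mice (-0.69 ± 0.16, adjusted p = 0.0207). Coq2 of the ubiquinone branch fell by 0.28, Mylip, a ubiquitin ligase gene of the uptake list, by 0.39, and the LXR genes Nr1h2 and Nr1h3 by 0.37 and 0.34. Scd2 rose by 0.37. Of these 7, Pmvk, Coq2, Mylip and Nr1h3 were lost under TMM scaling, at adjusted p from 0.0632 to 0.105. None of the 7 was called without the third library of each group (adjusted p 0.147 to 0.289). All but Nr1h2 were lost without daily 3 (0.0547 to 0.121). Srebf1, Pmvk, Nr1h3 and Scd2 were lost without daily 2 (0.0502 to 0.0684), Srebf1, Pmvk, Mylip and Nr1h3 without vehicle 1 (0.0628 to 0.0927), and Pmvk, Mylip, Nr1h3 and Scd2 without vehicle 2 (0.0519 to 0.0671). Pmvk and Nr1h3 were lost without vehicle 3 (0.0619 and 0.0579), and Nr1h3 without weekly 3 (0.0519). With its most abundant transcript alone Srebf1 had a log2 fold change of -0.38 (adjusted p = 0.137), and with the adipocyte covariate one of -0.60 (adjusted p = 0.0627). Nr1h2 was not called by limma with its most abundant transcript alone (-0.37, adjusted p = 0.0518). The share called was 7.14% in the list of other synthesis enzymes, 9.09% in SREBP processing and 8.33% in uptake and transport. It was 16.7% in the isoprenoid, 28.6% in the LXR and 9.09% in the lipogenic list. Over all muscle genes 13.7% were called and 11.8% were called lower.

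Between weekly and daily prednisone in muscle, 0 of 8 genes were called by limma, where 217 of 12246 genes, 1.77%, were called and 2130 had an unadjusted p under 0.05, none of them among the 8. Idi1 had 7.0, 6.87 and 6.47 TPM in weekly mice, against 6.42, 5.02 and 6.02 TPM in daily mice, without overlap, which held in that direction for 14.7% of all genes (0.19 ± 0.09, adjusted p = 0.304). The log2 fold change of Insig1 was 0.32 ± 0.15 (adjusted p = 0.318), and its groups overlapped.

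The fold changes of the tissues were compared within mice. For weekly against vehicle, 0 of 8 genes differed between adipose tissue and muscle by limma, where 2.78% of 11737 genes were called and 3294 had an unadjusted p under 0.05. Lss came nearest, with a fold change of 0.66 in adipose tissue and -0.30 in muscle, a difference of 0.96 ± 0.22 (adjusted p = 0.0532). Its adjusted p was 0.0216 with a pseudocount of 5, 0.0396 without daily 2 and between 0.0216 and 0.36 over 15 alternatives. Transcripts annotated as non-coding held much of Lss TPM in both tissues, and their part in this difference was not tested. Srebf2 differed by 0.32 ± 0.11 (adjusted p = 0.115) and Insig1 by 0.28 ± 0.15 (adjusted p = 0.247).

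For daily against vehicle, 0 of 8 genes differed between the tissues, where 0.0511% of genes were called and 1618 had an unadjusted p under 0.05. The differences ran from -0.11 for Idi1 to 0.46 for Lss. Fdft1, at -0.18 in adipose tissue and -0.26 in muscle after daily prednisone, differed between them by 0.07 ± 0.11 (95% interval -0.17 to 0.32). In the lists, Nr1h2 (0.40, adjusted p = 0.0481) and Fads2 (0.73, adjusted p = 0.0407) were called between tissues after weekly prednisone. Both calls were lost under TMM scaling (adjusted p = 0.249 for Nr1h2 and 0.138 for Fads2), with the replicate block (0.0868 and 0.0652), without the third mouse of each group (0.337 and 0.294) and without any single mouse except daily 2 (0.062 to 0.133 and 0.0619 to 0.101). With the top transcript alone the Nr1h2 difference turned to -0.23 (adjusted p = 0.538) and that of Fads2 was not called (0.0774).

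Within a tissue, the genes did not all vary together over the 9 libraries. In adipose tissue Sqle, Idi1, Lss, Srebf2 and Insig1 had pairwise Pearson correlations of log2(TPM + 1) from 0.773 to 0.929, highest for Sqle and Lss. Hmgcs1, Fdft1 and Fdps stood outside this group. Correlations of Hmgcs1 with the genes of the group ran from 0.228 (Insig1) to 0.596 (Srebf2). Those of Fdft1 ran from -0.347 (Lss) to 0.15 (Idi1), and those of Fdps from -0.386 (Insig1) to 0.044 (Srebf2). The group was drawn from these same values, and how often other genes correlate as highly was not tested. In muscle the highest correlations were 0.778, for Hmgcs1 with Insig1 and with Srebf2, and that of Sqle and Lss was 0.083. These values are descriptions over 9 libraries that share regimens, mice of a single strain and the scaling to a fixed total.

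Taking the mean scaled level of the 8 genes as a pattern, the genes most like it in adipose tissue were Adam19 (Pearson r = 0.992), Rnf20 (0.992), Zfp445 (0.991), Col5a2 (0.986) and Rbms1 (0.986), out of 9831 genes with a mean of 5 TPM or more. In muscle they were Nat10 (0.970), Lep (0.965), Pygl (0.962), Tmem120b (0.957) and Aifm2 (0.952), out of 7243. Lep, the gene of the adipocyte hormone leptin, is 1 of the 10 adipocyte markers. The members themselves had correlations with the pattern from 0.101 for Fdft1 to 0.945 for Srebf2 in adipose tissue, and from 0.487 for Sqle to 0.904 for Srebf2 in muscle.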

How the data were processed

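Per the labels, stranded mRNA libraries were made from RNA extracted in Trizol and cleaned on RNeasy columns. The authors deposited transcript values in TPM for 105129 transcripts, each paired with a gene symbol. Per the submitters' processing notes, Trimmomatic, HISAT2 and kallisto were used with mm10, with no versions or roles. All 18 sample columns matched a labelled sample.

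TPM was summed per symbol. Genes that reached 1 TPM in 3 or more of a tissue's libraries were tested on log2(TPM + 1), a pseudocount of 1, with limma 3.58.1 in R 4.3.3 (empirical Bayes with trend), over all 9 libraries of a tissue (6 residual degrees of freedom), with Benjamini-Hochberg adjustment over all genes tested and a threshold of 0.05. A fold change on this scale understates that of low genes. Tissue differences were taken within mice. The fit was tested on simulated data. Separate mice were the replicates.

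The 8 genes, the pathway and marker lists and the tests were chosen with earlier results of these data known. Named are the 8 genes, up to 4 called genes per list and comparison by smallest p, and the 5 genes most like the mean pattern per tissue, without predicted genes. Some genes of the pathway lists are not reported here and are in none of the list counts. Srebf1, Mvk, Pdss2 and Rnf139 were also named after their values were seen where they were not called or were the lowest of a list.

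Transcript types came from GENCODE M21, to which 103635 transcript IDs matched without version, and promoters from RefSeq. Alternatives were TMM scaling, other pseudocounts and filters, the top transcript, protein-coding transcripts only, marker covariates, the replicate number as a block, fewer groups in the fit and left-out libraries. The series text gives 2 adipose daily samples, while labels and table hold 3, all used.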

Additional observations from a re-analysis of the deposited data

How the results depend on the processing

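Of the 8 genes' fold changes under all alternatives, 1302 kept their direction and side of the threshold, 45 turned direction, 15 gained a call and 30 lost one. The 1302 include values that were not called and stayed so. The weekly calls in adipose tissue held in 15 of 21 alternatives for Lss and 12 of 21 for Insig1. The daily call of Fdft1 in muscle held in 10 of 20. Between weekly and vehicle mice in adipose tissue, 2 of the 8 genes were called. The number was 1 with no filter, with the top transcript, with only the compared groups in the fit and with protein-coding transcripts, 5 with the muscle marker covariate, 0 with the endothelial covariate, and 0 to 3 when libraries were left out. Between weekly and daily mice in adipose tissue it was 5 with the muscle marker covariate, against 0. In muscle after daily prednisone it was 0 under TMM scaling, with the replicate block and with the adipocyte covariate, against 1, and 0 to 2 with libraries left out. For the tissue difference after weekly prednisone it was 1 with a pseudocount of 5, against 0, and 0 to 1 with libraries left out. The marker covariates for endothelial cells and adipocytes and the protein-coding alternative were chosen after seeing the data. The cause of these changes was not tested.

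Direction turned for these values, none called except the first. Under TMM scaling Fdft1 turned to -0.78 between the tissues (adjusted p = 4.35e-06), Hmgcs1 to -0.08 (weekly against vehicle, adipose), Fdft1 to -0.07 (weekly against daily, adipose), Fdps and Srebf2 to 0.03 and 0.02 (weekly against vehicle, muscle), and in the tissue differences Sqle to -0.15, Fdps to -0.19 (weekly) and Fdft1 to -0.01 (daily). With the endothelial covariate Hmgcs1 turned to -0.02 (weekly against vehicle), Fdft1 to -0.08 and Srebf2 to -0.06 (weekly against daily). For Idi1 after daily prednisone in adipose tissue the value, -0.00, became 0.03 (top transcript and muscle marker covariate) and 0.01 (protein-coding and endothelial covariate), and Hmgcs1 became 0.00 between weekly and daily with the muscle marker covariate. With the adipocyte covariate in muscle, Hmgcs1 (0.02), Lss (0.09) and Insig1 (0.02) turned after daily prednisone, Srebf2 (0.01) after weekly and Hmgcs1 (-0.05) between the regimens. Fdps became 0.09 in muscle after weekly prednisone with the top transcript. In the weekly tissue difference Sqle became -0.04 with a pseudocount of 0.1, Fdps -0.01 (protein-coding), -0.00 (pseudocount of 5) and -0.16 (top transcript), and Nr1h2 -0.23 (top transcript).

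With libraries left out, values that turned ranged as follows in adipose tissue after daily prednisone: Fdps -0.07 to 0.03, Idi1 -0.03 to 0.04, Insig1 -0.01 to 0.12 and Srebf2 -0.01 to 0.14. In muscle they were Fdps -0.10 to 0.00 (weekly), Lss -0.32 to 0.10 (daily), and between the regimens Hmgcs1 -0.05 to 0.25, Lss -0.40 to 0.02 and Sqle -0.00 to 0.22. In the weekly tissue difference they were Fdft1 -0.09 to 0.07, Fdps -0.04 to 0.06 and Sqle -0.09 to 0.19.

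Over all genes in adipose tissue, 1052 were called between weekly and vehicle mice, against 291 with no filter, 454 with the top transcript, 485 with only the compared groups, 4119 with the muscle marker covariate, 157 with the endothelial covariate and 1 to 1511 with libraries left out. In muscle after daily prednisone 1674 were called, against 813 under TMM scaling and 8 to 1668 with libraries left out. In the weekly tissue difference 326 were called, against 4 under TMM scaling, 27 with no filter, 5 with the top transcript, 0 with the replicate block, 595 with protein-coding transcripts, and 177 and 657 with pseudocounts of 0.1 and 5. The same replicate number gave no sign of pairing mice: residual correlations of same-numbered libraries were -0.0632 to 0.192 in adipose tissue and -0.12 to 0.106 in muscle. With the number as a replicate block, Lss (adjusted p = 0.0241) and Insig1 (0.0174) stayed called in adipose tissue after weekly prednisone, while Fdft1 was not called in muscle after daily prednisone (0.0623) or between the tissues (0.0518). TPM carries no counts, so the depth of a library sets no limit that can be stated here.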
